A study of Mus musculus with 6 samples.

Results

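Genes of sterol and fatty acid synthesis under the sterol regulatory element-binding proteins were examined in spheroids of the 4T1 line, derived from a triple-negative mammary tumour of the mouse. The 28 members were chosen by symbol from known roles: 21 in the sterol branch, of which 18 encode enzymes and 3 are the regulators and transport gene Srebf2, Insig1 and Stard4, and 7 in the fatty acid branch (Srebf1, Acly, Acaca, Fasn, Elovl6, Scd1 and Scd2). All 28 were found among the 48820 gene identifiers of the deposited counts, and all 28 passed the filter on low counts, as did 15807 genes in total. RNA was sequenced from 3 libraries of wild-type (WT) spheroids and 3 libraries labelled as a LATS1/2 double knockout (dKO), here WT 1 to 3 and dKO 1 to 3. The Hippo kinases LATS1 and LATS2 phosphorylate the coactivators YAP and TAZ and keep them out of the nucleus. Both groups grew in RPMI with 10% fetal bovine serum, which brings lipoprotein cholesterol, and with antibiotics. The labels name no treatment, do not say whether the dKO line is 1 clone, and do not say whether replicates came from separate cultures, so p-values measure only the spread between these libraries.

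Sterol regulatory element-binding proteins (SREBPs) are transcription factors held in the endoplasmic reticulum as membrane precursors. When membrane sterol is low, the escort protein SCAP carries them to the Golgi, where the proteases encoded by Mbtps1 and Mbtps2 release the active part. When sterol is plentiful, the INSIG proteins hold SCAP back. SREBP2, from Srebf2, acts mainly on cholesterol synthesis, and SREBP1, from Srebf1, mainly on fatty acid synthesis, with overlap between them. In proliferating tumour cells the sterol route supplies membrane cholesterol and prenyl groups, and the fatty acid route supplies membrane phospholipids.

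Library totals ran from 38194478 to 49630116 counts. Lats1 fell to 50.9 ± 2.55 CPM in the libraries labelled dKO from 153 ± 6.36 CPM in WT (SD, n = 3), where CPM is the gene's count scaled to the library total with TMM factors. Lats2 went against the label, at 77.9 ± 12.5 CPM against 27.2 ± 4.01 CPM in WT, so each direction below is between libraries as labelled; a count per gene does not show small edits. On the second principal component WT 2 lay apart from WT 1 and WT 3, and dKO 3 from dKO 1 and dKO 2. Both libraries touch the members' values, so the log2 fold change of each member is also given without them. Epithelial keratin genes were abundant in all 6 libraries, Krt8 at 1636 ± 150.3 CPM in WT and 1116 ± 187 CPM under the dKO label, while Krt19 rose from 103 ± 6.95 to 319.9 ± 46.3 CPM. Of the 6 mammary epithelial markers 2 were called higher and 3 lower, and of all tested genes 28.6% were called higher and 28.7% lower. The 6 markers summed to 4976 to 5483 CPM in WT and 4047 to 4861 CPM under the dKO label. In bulk RNA, fewer cells of a type and less RNA per cell cannot be told apart.

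SREBPs bind sterol regulatory elements near the start sites of their targets, usually beside boxes for the factors NF-Y (CCAAT) and Sp1 (GGGCGG). Promoters of 300 bases (250 before to 50 after a start site) were at hand for 22 of the 28 members in the RefSeq table on GRCm38.p6: 17 of the sterol and 5 of the fatty acid branch. Promoters are shown for 4 enzyme genes that rose (Hmgcs1, Mvd, Cyp51 and Nsdhl), for the sterol enzyme gene that fell (Dhcr7) and for the fatty acid synthase gene (Fasn), which did not pass the test. Each is written 5′ to 3′ on the strand of its gene. Capitals mark CCAAT on either strand (ATTGG when reversed) and matches to TCACNCNAC, a loose form of the sterol regulatory element.
Hmgcs1 (chr13:119690101-119690400, plus strand): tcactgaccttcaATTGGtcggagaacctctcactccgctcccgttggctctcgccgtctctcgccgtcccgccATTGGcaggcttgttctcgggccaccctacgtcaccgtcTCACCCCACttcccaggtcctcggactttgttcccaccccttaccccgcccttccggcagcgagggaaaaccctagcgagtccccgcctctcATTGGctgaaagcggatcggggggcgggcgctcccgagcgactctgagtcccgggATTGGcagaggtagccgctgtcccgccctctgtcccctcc
Mvd (chr8:122443373-122443672, minus strand): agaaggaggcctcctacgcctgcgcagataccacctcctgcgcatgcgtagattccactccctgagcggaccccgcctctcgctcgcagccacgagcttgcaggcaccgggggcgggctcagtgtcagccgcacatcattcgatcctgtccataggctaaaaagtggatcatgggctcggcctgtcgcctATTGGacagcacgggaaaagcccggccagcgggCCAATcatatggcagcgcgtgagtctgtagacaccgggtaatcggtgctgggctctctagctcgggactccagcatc
Cyp51 (chr5:4104648-4104947, minus strand): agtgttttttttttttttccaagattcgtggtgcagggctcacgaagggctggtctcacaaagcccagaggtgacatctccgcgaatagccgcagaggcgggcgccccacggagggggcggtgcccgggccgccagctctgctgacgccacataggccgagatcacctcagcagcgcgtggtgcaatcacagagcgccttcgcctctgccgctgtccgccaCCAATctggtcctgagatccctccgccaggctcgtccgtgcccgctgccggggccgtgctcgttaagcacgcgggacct
Nsdhl (chrX:72918271-72918570, plus strand): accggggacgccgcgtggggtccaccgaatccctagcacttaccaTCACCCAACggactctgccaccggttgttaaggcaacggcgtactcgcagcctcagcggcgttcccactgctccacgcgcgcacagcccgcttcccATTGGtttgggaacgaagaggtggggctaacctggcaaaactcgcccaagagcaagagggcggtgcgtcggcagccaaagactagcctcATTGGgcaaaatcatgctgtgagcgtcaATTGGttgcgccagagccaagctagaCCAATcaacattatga
Dhcr7 (chr7:143829964-143830263, plus strand): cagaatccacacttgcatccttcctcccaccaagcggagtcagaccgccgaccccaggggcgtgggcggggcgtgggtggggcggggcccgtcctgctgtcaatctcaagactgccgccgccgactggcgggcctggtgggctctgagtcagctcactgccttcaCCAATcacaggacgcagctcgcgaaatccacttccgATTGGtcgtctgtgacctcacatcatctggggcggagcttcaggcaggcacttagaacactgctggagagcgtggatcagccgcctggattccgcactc
Fasn (chr11:120824498-120824797, minus strand): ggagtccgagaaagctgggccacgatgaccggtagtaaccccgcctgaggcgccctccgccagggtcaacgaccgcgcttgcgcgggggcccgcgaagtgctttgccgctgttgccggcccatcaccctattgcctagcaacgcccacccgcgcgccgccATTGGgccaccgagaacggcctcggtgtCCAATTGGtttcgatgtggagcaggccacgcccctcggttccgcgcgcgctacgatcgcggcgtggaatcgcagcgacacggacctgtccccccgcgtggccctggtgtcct

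CCAAT was found on either strand in the promoters of 16 of 17 sterol branch genes (94.1%) and 3 of 5 fatty acid branch genes (60%), against 43% of the 10513 tested genes in the table and 37.4% of its 32851 promoters. A gene, member or not, counted once if any of its listed start sites held the motif, so the share of tested genes is on the same footing as that of the members. The Sp1 box GGGCGG was found for 16 of the 17 and 2 of the 5, against 66.9% of tested genes and 35.7% of all promoters. The element core TCACCCCAC occurred in 1 member, Hmgcs1, and in 0.685% of tested genes and 0.551% of all promoters. TCACNCCAC, which includes that core, occurred in no further member, in 1.36% of tested genes and in 1.24% of all promoters. TCACNCNAC, which includes both, added Nsdhl and occurred in 3.31% of tested genes and 2.7% of all promoters. The palindromic E-box CACGTG was found for 4 sterol branch genes, Dhcr7, Hsd17b7, Insig1 and Sc5d (23.5% of 17), and in 11.5% of tested genes and 7.15% of all promoters. These are matches of letters in a window, not measured binding. The only Acaca window begins at 84195188 on chromosome 11, inside the gene, whose annotated start is 84129672. It held neither CCAAT nor GGGCGG, and the fatty acid shares rest partly on it. Dhcr7 has 3 start sites in the table, and the one printed is that with CCAAT on both strands. That window also lies inside its gene, whose annotated start is 143823145 on chromosome 7. The Dhcr7 windows beginning at 143822917 and 143823149 held no CCAAT, and the E-box of Dhcr7 lay in the latter, not in the printed window.

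The enzyme genes of the sterol branch were mostly higher in the libraries labelled dKO. Of 21 members of the branch, 16 rose, 1 fell and 4 did not pass (edgeR quasi-likelihood test, Benjamini-Hochberg adjusted p under 0.05 over all tested genes), and all 16 were enzyme genes. Over all tested genes, 28.6% were called higher, 28.7% lower and 57.3% in either direction. The median log2 fold change of the branch was 0.86, against -0.005 over all genes tested. A fold change is given as log2 of the libraries labelled dKO over WT, ± SE.

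The first steps, from acetyl-CoA to mevalonate and on to the isoprenoid units, rose at each member. Acat2, which joins acetyl-CoA units to acetoacetyl-CoA, stood at 72.7, 60.3 and 77.5 CPM in WT 1, WT 2 and WT 3 and at 128, 126 and 129 CPM in dKO 1, dKO 2 and dKO 3. Hmgcs1, the cytosolic HMG-CoA synthase gene, stood at 132, 88.3 and 144 CPM in the WT libraries and 231, 240.3 and 307 CPM in those labelled dKO, in the same order. For both genes the groups did not overlap, with log2 fold changes of 0.86 ± 0.10 and 1.09 ± 0.19 (edgeR adjusted p = 8.12e-05 and 0.0016). WT 2 was the lowest library for both. The kinase genes Mvk and Pmvk, which phosphorylate mevalonate in succession, rose by 0.88 ± 0.18 and 0.53 ± 0.11 (edgeR adjusted p = 0.00233 and 0.00358).

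Mvd (ENSMUSG00000006517, GRCm38 chromosome 8, 122433601 to 122443422), the mevalonate diphosphate decarboxylase gene that makes isopentenyl diphosphate, had the highest fold of the 28 members. It stood at 16.2, 13.7 and 14.5 CPM in WT and 76.7, 72.4 and 95.95 CPM in the libraries labelled dKO. Every library labelled dKO was far above every WT library, a 5.52-fold difference (log2 fold change 2.46 ± 0.13, edgeR adjusted p = 8.87e-07). Idi1, the isomerase that balances the isoprenoid units, stood at 68.9, 39.1 and 73.3 CPM in WT and 127, 118 and 142 CPM under the dKO label. Fdps, which builds farnesyl diphosphate, the branch point to sterols and prenylation, stood at 110.3, 89.04 and 108 CPM in WT and 207, 214 and 254 CPM under the dKO label. Fdps shares 26.7% of its exon length with Gm43738 on the same strand, a gene listed at 0. The groups overlapped for neither Idi1 nor Fdps, although Idi1 in WT 2 was well under WT 1 and WT 3. Their log2 fold changes were 1.09 ± 0.22 and 1.14 ± 0.11 (edgeR adjusted p = 0.00339 and 2.91e-05).

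**Figure D1:**
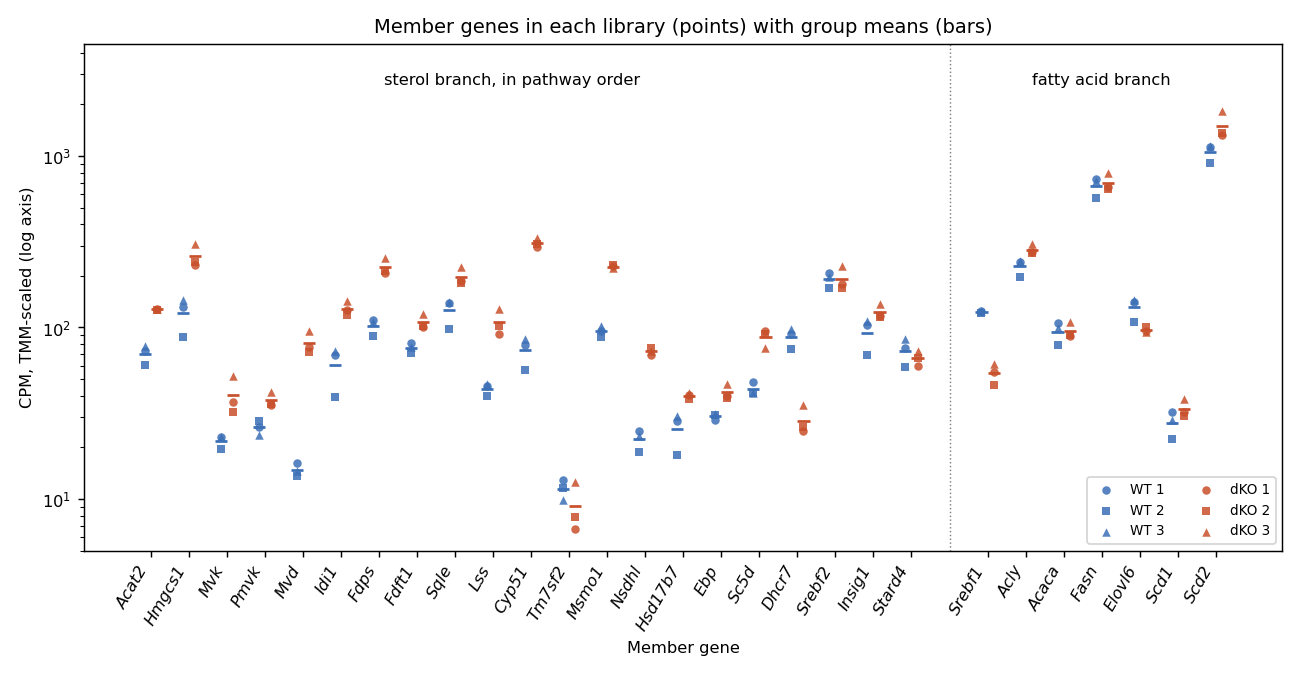
Expression of the 28 member genes in each of the 6 libraries, in CPM on a log axis, with sterol branch genes in pathway order on the left and fatty acid branch genes on the right. Points are libraries (blue WT, orange labelled dKO) and bars are group means; Mvd, Cyp51 and Nsdhl stand apart upward, Dhcr7 and Srebf1 downward, while Fasn, Acaca and Srebf2 overlap.

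The steps that commit farnesyl diphosphate to sterols also rose, Fdft1 and Sqle by smaller folds than the earlier members other than Pmvk. Fdft1, the squalene synthase gene, rose by 0.49 ± 0.09 from 76.3 ± 5.19 to 107 ± 10.7 CPM, and Sqle, the squalene epoxidase gene at a rate-limiting oxygen-using step, rose by 0.66 ± 0.14 from 126 ± 23.7 to 198 ± 24.1 CPM (edgeR adjusted p = 0.00184 and 0.0042). Lss, which closes the rings to lanosterol, rose by 1.29 ± 0.13 from 44.05 ± 3.72 to 108 ± 18.9 CPM (edgeR adjusted p = 3.89e-05). Exons of Fdft1 overlap those of Ctsb on the other strand over 18.3% of its exon length, and reads there cannot be told apart if counting ignored strand. Ctsb itself did not pass, at -0.09 on the log2 scale (edgeR adjusted p = 0.483).

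From lanosterol to cholesterol, 6 of 8 enzyme genes rose, 1 fell and 1 did not pass. Cyp51 (ENSMUSG00000001467, GRCm38 chromosome 5, 4081145 to 4104746), the lanosterol demethylase gene, stood at 79.1, 56.6 and 86.2 CPM in WT and 296, 307 and 333 CPM in the libraries labelled dKO. Nsdhl (ENSMUSG00000031349, GRCm38 chromosome X, 72918557 to 72958514), a sterol dehydrogenase gene that works with Msmo1 in removing methyl groups, stood at 25.02, 18.8 and 23.4 CPM in WT and 68.8, 75.5 and 73.4 CPM under the dKO label. These groups were far apart, 4.22-fold and 3.24-fold, with log2 fold changes of 2.08 ± 0.15 and 1.69 ± 0.12 (edgeR adjusted p = 5.47e-06 and 4.13e-06). Msmo1, the methyl sterol oxidase gene, rose by 1.25 ± 0.07 with a spread of only 2.12% (SD over mean) among the libraries labelled dKO. Hsd17b7, a ketosteroid reductase gene of the same complex, and Ebp, the sterol isomerase gene, rose less, by 0.64 ± 0.18 and 0.46 ± 0.10 (edgeR adjusted p = 0.0134 and 0.00377). Tm7sf2, a sterol reductase gene, was low and did not pass, with 12.9, 11.6 and 9.85 CPM in WT and 6.72, 7.89 and 12.5 CPM under the dKO label (edgeR adjusted p = 0.257, 95% interval of the log2 fold change -0.89 to 0.20). Without dKO 3 it was called lower, at -0.65 (edgeR adjusted p = 0.0195, over the alternatives 0.0156 to 0.993). Its exons share 12.1% of their length with Vps51 on the same strand, which fell by 0.42 on the log2 scale. Among genes that rose, Fdft1 aside, Hmgcs1, Idi1, Cyp51 and Lss share 12.1%, 9.22%, 3.76% and 3.53% of their exon length with genes on the other strand. The partners of Hmgcs1 and Idi1 are not among the deposited counts.

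The last steps went opposite ways. Sc5d, the desaturase gene whose product makes 7-dehydrocholesterol, stood at 47.9, 41.3 and 41.6 CPM in WT and 95.5, 91.7 and 75.7 CPM in the libraries labelled dKO. Dhcr7 (ENSMUSG00000058454, GRCm38 chromosome 7, 143823145 to 143848410), whose reductase turns 7-dehydrocholesterol into cholesterol, stood at 91.4, 74.98 and 98.3 CPM in WT and 24.8, 26.1 and 35.2 CPM under the dKO label. The groups did not overlap for either gene: Sc5d rose by 1.01 ± 0.11 and Dhcr7 was 3.08-fold lower, or -1.62 ± 0.15 on the log2 scale (edgeR adjusted p = 6.2e-05 and 2.8e-05). Dhcr7 was the only sterol branch member called lower with all 6 libraries. The log2 ratio of Sc5d to Dhcr7 was -0.93, -0.86 and -1.24 in WT 1 to 3 and 1.95, 1.81 and 1.11 in dKO 1 to 3, negative in every WT library and positive in every library labelled dKO. An exact two-sided permutation test gave p = 0.1 for this ratio, the smallest that 3 against 3 allows. Each of the 5 ratios computed had that p, so a Benjamini-Hochberg adjustment over them leaves it at 0.1. The ratio of Sc5d to Dhcr7 was chosen after the values were seen.

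**Figure D2:**
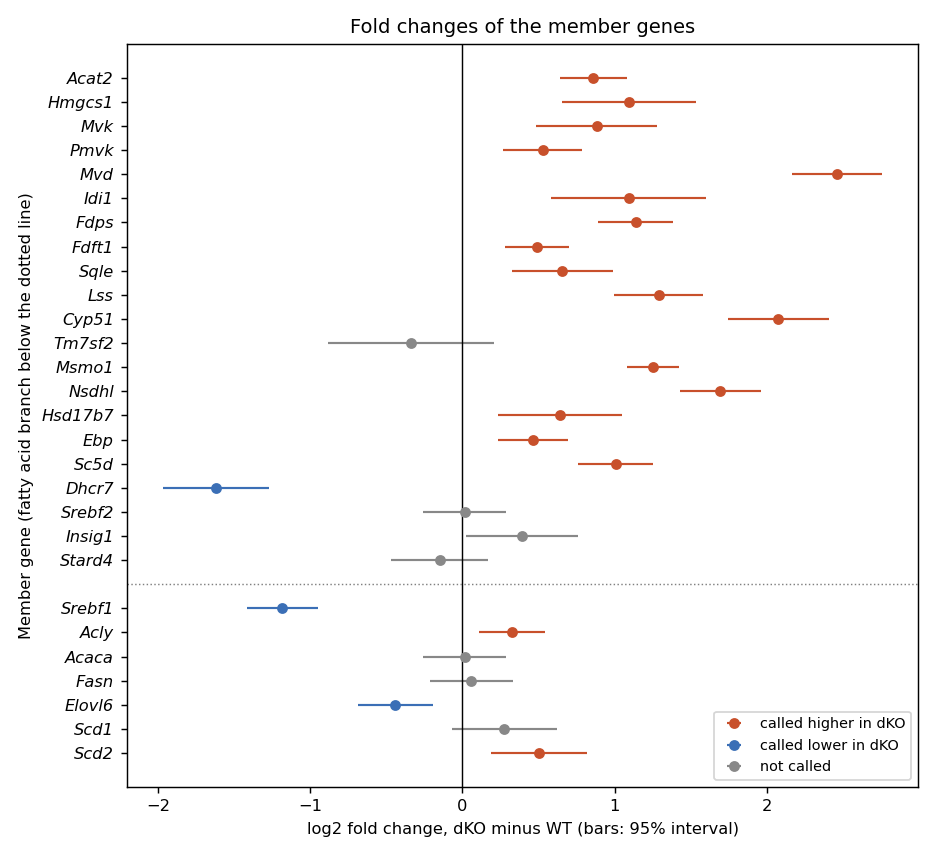
Log2 fold change of each member, labelled dKO minus WT, with its 95% interval from the edgeR fit; sterol branch in pathway order above the dotted line, fatty acid branch below. Orange members were called higher, blue lower and grey not called; Mvd is at 2.46 and Dhcr7 at -1.62.

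The sterol branch members that are not enzymes did not pass. Srebf2 stood at 207, 169 and 196 CPM in WT and 180.3, 171 and 228 CPM under the dKO label. Its groups overlapped (log2 fold change 0.01 ± 0.12, 95% interval -0.26 to 0.29, edgeR adjusted p = 0.927). Insig1, a sterol-sensing anchor gene that is itself a classical SREBP target, stood at 103, 69.1 and 108 CPM in WT and 117, 115 and 137 CPM under the dKO label. Its groups did not overlap, and it missed the threshold at 0.39 ± 0.16 (edgeR adjusted p = 0.0673); it passed without WT 3 (0.0359), by DESeq2 (0.0298) and with the replicate number as a block (0.0187). Its adjusted p ran from 0.0187 to 1 over the alternatives, the highest being the test against a 1.5-fold change. Its log2 fold change was 0.21 without WT 2 and 0.13 without WT 2 and dKO 3, and it passed in neither. Stard4, a cytosolic sterol carrier gene, stood at 75.7, 58.5 and 85.9 CPM in WT and 59.6, 66.2 and 72.7 CPM under the dKO label, overlapped between groups and had an edgeR adjusted p of 0.393; it was called lower without WT 2, at -0.29 (edgeR adjusted p = 0.0472, over the alternatives 0.00313 to 1). The log2 ratio of Insig1 to Srebf2 was -1.01, -1.29 and -0.85 in WT and -0.63, -0.58 and -0.74 under the dKO label (exact permutation p = 0.1, the smallest possible).

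The fatty acid branch did not move as 1 group: of 7 members, 2 passed as higher, 2 as lower and 3 in neither direction, shares of 28.6% each way against 28.6% and 28.7% of all tested genes. Its median log2 fold change was 0.06. Srebf1 (ENSMUSG00000020538, GRCm38 chromosome 11, 60199089 to 60222581), the gene of the SREBP most tied to fatty acid synthesis, stood at 124, 121 and 124 CPM in WT and 55.2, 46.5 and 61.1 CPM in the libraries labelled dKO. The WT libraries were nearly equal and all above the others, so that Srebf1 was 2.27-fold lower (log2 fold change -1.18 ± 0.10, edgeR adjusted p = 1.55e-05). Rai1 on the other strand, which fell by 1.62 on the log2 scale, shares 1.93% of the Srebf1 exon length; its part in the Srebf1 value was not tested. The counts do not separate the transcripts of the different Srebf1 start sites. The log2 ratio of Srebf1 to Srebf2 was -0.74, -0.48 and -0.66 in WT 1 to 3 and -1.71, -1.88 and -1.90 in dKO 1 to 3 (exact permutation p = 0.1, the smallest possible).

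Among the fatty acid enzymes, Acly, which makes cytosolic acetyl-CoA from citrate for both branches, stood at 239.5, 197 and 244 CPM in WT and 277, 271 and 305 CPM under the dKO label. Its groups did not overlap and it rose by 0.33 ± 0.09, a 1.25-fold change (edgeR adjusted p = 0.0163). Acaca, the acetyl-CoA carboxylase gene that makes malonyl-CoA, stood at 106, 79.3 and 98.8 CPM in WT and 88.7, 90.9 and 107 CPM under the dKO label. Fasn (ENSMUSG00000025153, GRCm38 chromosome 11, 120805846 to 120824547), the fatty acid synthase gene that builds palmitate, stood at 733, 566 and 711 CPM in WT and 656, 641 and 797 CPM under the dKO label. Both genes overlapped between groups and did not pass (edgeR adjusted p = 0.928 and 0.7). The 95% intervals of their log2 fold changes ran from -0.26 to 0.29 for Acaca and from -0.21 to 0.33 for Fasn, so a doubling lies outside them. Their log2 fold changes turned from 0.01 and 0.06 to -0.10 and -0.050 without WT 2, and to -0.075 and -0.047 without dKO 3.

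The genes that lengthen and desaturate palmitate differed from each other. Elovl6, the elongase gene from palmitate to stearate, fell by 0.44 ± 0.11 on the log2 scale, with 140.2, 108 and 144 CPM in WT and 94.9, 100.5 and 93.7 CPM under the dKO label (edgeR adjusted p = 0.00726). Scd2, a stearoyl-CoA desaturase gene, stood at 1123, 909.9 and 1137 CPM in WT and 1320.5, 1355 and 1823 CPM under the dKO label and rose by 0.50 ± 0.14 (edgeR adjusted p = 0.0128). Its paralog Scd1 stood at 32.2, 22.3 and 28.9 CPM in WT and 32.2, 30.4 and 38.3 CPM under the dKO label, overlapped between groups and did not pass (edgeR adjusted p = 0.154). Scd2 was the most abundant member per exon length, at 193 ± 23.3 CPM per kb in WT and 274 ± 51.4 CPM per kb under the dKO label. Scd1, at 5.68 ± 1.03 and 6.87 ± 0.844 CPM per kb, was far lower. Scd1 and Scd2 are close paralogs, and the sources used here do not say how reads were split between such copies.

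The contrast between the branches showed in summed and in typical values. The summed level of the 18 sterol enzyme genes was 1123, 888 and 1152 CPM in WT 1 to 3 and 2021, 2041 and 2335 CPM in dKO 1 to 3, a 2.02-fold ratio of means. The 6 fatty acid enzyme genes summed to 2374, 1883 and 2364 CPM and 2469, 2488 and 3164 CPM, a 1.23-fold ratio, and Scd2 and Fasn held most of it in both groups. The median log2 fold change was 0.99 over the 10 enzyme genes up to lanosterol, 0.82 over the 8 after it, and 0.17 over the 6 fatty acid enzyme genes. Of the sterol enzyme genes, 16 of 18 had groups that did not overlap and were higher under the dKO label, and 1 of 18 did not overlap and was lower. Over all tested genes, 32.7% did not overlap and were higher, and 33% lower. The difference between the branches is a description, since the members were chosen with earlier results known.

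**Figure D3:**
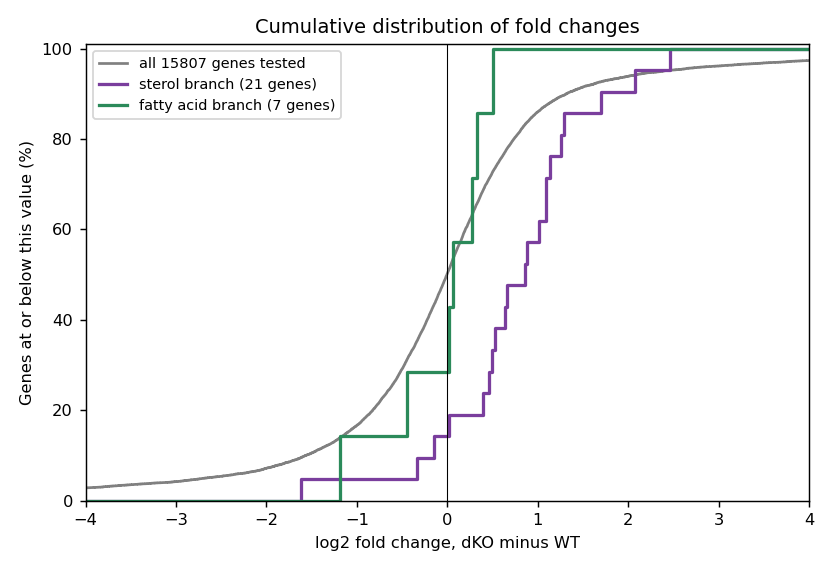
Cumulative share of genes (percent, vertical axis) at or below each log2 fold change, labelled dKO minus WT (horizontal axis), for all 15807 tested genes, the 21 sterol branch genes and the 7 fatty acid branch genes. The sterol branch lies to the right of all genes over most of the range, with a median of 0.86, while the fatty acid branch crosses its midpoint at 0.06. The axis stops at 4 on each side.

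Within groups, the members moved together from library to library. In WT 2, 18 of 21 sterol branch genes and all 7 fatty acid branch genes were below their WT mean, with median deviations of -0.19 and -0.23 on the log2 scale. In dKO 3, 19 of 21 and 6 of 7 were above the mean of the libraries labelled dKO, with medians of 0.16 and 0.18. Over all tested genes, 48.5% were above the group mean in WT 2 and 50.8% in dKO 3. Idi1, Hsd17b7, Hmgcs1 and Insig1 lay lowest in WT 2, at -0.57, -0.47, -0.43 and -0.41. Sc5d, Elovl6 and Msmo1 were not above their group mean in dKO 3, at -0.20, -0.04 and -0.03.

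**Figure D4:**
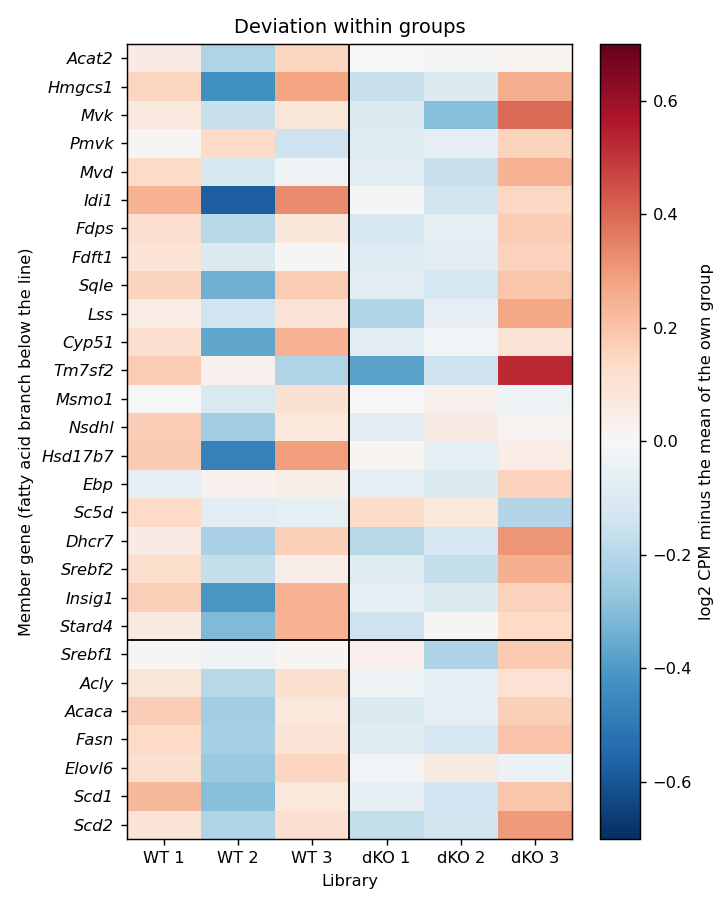
Deviation of each member (rows) in each library (columns) from the mean of its own group, in log2 CPM; blue is below and red above the group mean. The WT 2 column is blue for 18 of 21 sterol branch genes and for 7 of 7 fatty acid branch genes, and the dKO 3 column is mostly red.

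Without WT 2 and dKO 3, leaving 2 libraries a group, 16 sterol branch genes rose, all enzyme genes. Most members were below their group mean in WT 2 and above it in dKO 3. Leaving out both therefore lowers most fold changes by the choice itself. It also narrows the spread: the SE of Srebf2 went from 0.12 to 0.05 and that of Fasn from 0.12 to 0.04. Up to lanosterol, the log2 fold change was 0.76 for Acat2, 0.77 for Hmgcs1, 0.58 for Mvk, 0.51 for Pmvk, 2.28 for Mvd, 0.78 for Idi1, 0.95 for Fdps, 0.35 for Fdft1, 0.40 for Sqle and 1.08 for Lss. After lanosterol, it was 1.87 for Cyp51, 1.22 for Msmo1, 1.58 for Nsdhl, 0.41 for Hsd17b7, 0.39 for Ebp and 1.06 for Sc5d. In the fatty acid branch Acly and Scd2 were again called higher, at 0.18 against 0.33 and 0.24 against 0.50 with all 6 libraries. Insig1, at 0.13, and Scd1, at 0.04, did not pass. The median of the sterol branch was 0.58 in place of 0.86. Falls numbered 4 in each branch: Dhcr7 at -1.90, Tm7sf2 at -0.64, Stard4 at -0.36 and Srebf2 at -0.20 in the sterol branch, and Srebf1 at -1.29, Elovl6 at -0.54, Acaca at -0.19 and Fasn at -0.15 in the fatty acid branch. Of all genes tested on these 4 libraries, 31.3% were called higher and 31% lower.

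Levels were compared between members per kb of merged exon. In WT, Scd2 was followed by Fasn (61.2 ± 8.27 CPM per kb), Acly (42.995 ± 4.91), Insig1 (30.2 ± 6.87), Acat2 (27.6 ± 3.50), Srebf2 (26.6 ± 2.72) and Hmgcs1 (26.5 ± 6.41). From Insig1 to Hmgcs1 these neighbours lay within each other's spread. Under the dKO label, Cyp51 came next after Scd2 with 70.6 ± 4.29 CPM per kb, within the spread of Fasn at 63.8 ± 7.90, and Hmgcs1, Acly, Fdps and Acat2 lay between 50.1 and 56.5. Dhcr7 went from 15.2 ± 2.06 to 4.93 ± 0.973 CPM per kb and was then, after Tm7sf2, the lowest member. Tm7sf2 was the lowest in both groups, at 2.60 ± 0.347 and 2.05 ± 0.696 CPM per kb.

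Among 10 genes listed for the machinery that processes SREBPs, 5 rose, 3 fell and 2 stayed short of the threshold (median 0.28 on the log2 scale). For this and the lists that follow, 28.6% of all tested genes were called higher and 28.7% lower, with a median of -0.005. Scap, the escort gene, was at 81.9 ± 7.97 CPM in WT and 117 ± 13.9 CPM under the dKO label, and Mbtps2, a Golgi protease gene, at 71.9 ± 4.70 and 97.7 ± 1.52 CPM; both rose (edgeR adjusted p = 0.00291 and 0.000955). Mbtps1, which makes the first cut, stood at 339, 301 and 349 CPM in WT and 166, 164 and 199.98 CPM under the dKO label and fell by 0.90 on the log2 scale (edgeR adjusted p = 6.25e-05). Insig2, the second INSIG gene, was at 56.8 ± 4.93 and 66.6 ± 10.3 CPM and did not pass (edgeR adjusted p = 0.145). Erlin1, an endoplasmic reticulum lipid-raft gene, rose by 0.75 ± 0.08, and Rnf145, a sterol-responsive ubiquitin ligase gene, fell by 0.74 ± 0.06 (edgeR adjusted p = 5.17e-05 and 1.64e-05).

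Among 12 other genes of the isoprenoid and sterol route, 7 rose, 1 fell and 4 stayed short of the threshold (median 0.29). The fall was that of Cyb5r3, the cytochrome b5 reductase gene that feeds electrons to several of the oxidising enzymes, from 238 ± 7.51 to 143 ± 1.52 CPM (edgeR adjusted p = 1.29e-05). Of 16 other fatty acid and lipid synthesis genes, 15 were tested: 7 rose, 1 fell and 7 stayed short of the threshold (median 0.15). Elovl1, an elongase gene for very long chains, rose by 1.201 ± 0.09, and Acacb, the mitochondrial-membrane carboxylase gene, by 1.502 ± 0.15 (edgeR adjusted p = 8.04e-06 and 4.11e-05). Acacb was at 8.39 ± 1.06 CPM in WT and 23.8 ± 3.05 CPM under the dKO label. Of 15 sterol uptake, transport and storage genes, 14 were tested, with 5 rises and 5 falls (median 0.04). Tmem97, a sterol-regulated membrane protein gene, rose by 1.49 ± 0.11, while Npc2, which hands cholesterol out of lysosomes, fell by 1.35 ± 0.08 (edgeR adjusted p = 4.93e-06 and 2.31e-06). Npc1, in the same list and named after its value was seen, went opposite to Npc2. It rose from 23.8 ± 1.97 CPM in WT to 38.3 ± 0.477 CPM under the dKO label (edgeR adjusted p = 0.000327).

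Summed markers of other cells were low, with 1 exception, the macrophage and leukocyte list under the dKO label. The 6 adipocyte markers, cells with high lipid synthesis, summed to 0.101 to 0.431 CPM per library in WT and 0.977 to 1.65 CPM under the dKO label. Of them, 1 was tested, Lep, which was called higher at 0.0338 ± 0.0585 against 0.825 ± 0.124 CPM, and Adipoq and Plin1 were at or near 0 in all libraries. Of 6 fibroblast markers 2 were tested, Pdpn called higher and Col1a1 lower. Pdpn was at 0 in every WT library and at 0.645 ± 0.417 CPM under the dKO label. Lum was at 0 in all libraries. Pdgfrb was at 0 in WT and at 0.158 ± 0.174 CPM under the dKO label. The 6 fibroblast markers summed to 8.56 to 14.4 CPM in WT and 2.21 to 4.16 CPM under the dKO label, most of it Col1a1 at 12.1 ± 3.15 and 2.46 ± 0.682 CPM. Endothelial markers summed to at most 1.46 CPM in any library, with Pecam1 highest on the WT mean and Kdr and Emcn at 0 throughout. The 6 macrophage and leukocyte markers, of which 3 were tested and 3 called higher, summed to 3.30 to 16.3 CPM in WT and 76.99 to 209 CPM under the dKO label. That sum was mostly Csf1r, at 3.55, 14.2 and 1.01 CPM in WT and 188, 189.6 and 62.7 CPM under the dKO label. The others called higher were Cd68, with means of 2.15 CPM in WT and 15.6 CPM under the dKO label, and Itgam, with 0 and 0.375 CPM. Adgre1, Ptprc and Lyz2 were not tested. Adgre1 was at 0 in every WT library and at 2.12, 2.53 and 0 CPM in dKO 1 to 3. Ptprc was at 0 in every WT library and at 0.174 CPM on average under the dKO label. Lyz2 went the other way near 0, with means of 0.0496 and 0.031 CPM. The part of such cells in the members' values was not tested.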

How the data were processed

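Expression was measured by RNA-seq in 3 WT and 3 dKO libraries. The values the authors deposited are estimated counts per gene, whole and not normalized. Reads went through HISAT2 2.2.1 and StringTie 2.2.1 on GRCm38 (mm10), per the submitters' processing notes; for the counting step, annotation release and strand, tools or settings were not given in the sources used here. Each of the 6 per-sample files equalled its column of the series table. Low values piled up at 4 counts, so 1 read pair may add several counts.

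Symbols, positions and merged exon lengths came from GENCODE M21, which matched 48144 of 48820 identifiers; the others held 0.0293% of counts. edgeR 4.0.16 in R 4.3.3 used TMM, filterByExpr by group and robust quasi-likelihood F-tests over all 15807 genes, with genotype as the only term. SE is the absolute log2 fold change over the square root of F. The test was checked on simulated counts.

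The members and lists (SREBP machinery, further route genes, fatty acid genes, sterol transport, LXR and efflux, fatty acid oxidation, and markers) were chosen with earlier results of these data known. All members are named, with the 2 genes of smallest adjusted p in each pathway list, Scap, Insig2, Mbtps1, Mbtps2, and the most abundant marker of each marker list; others were named after their values were seen, and 2 genes that the rule takes are not reported here. Alternatives covered normalization, DESeq2 1.42.0, filters, thresholds, a replicate block and libraries left out.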

Additional observations from a re-analysis of the deposited data

How the results depend on the processing

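The counts were repeated under 16 alternatives. When each gene had to exceed a 1.5-fold change, a stricter question, 4556 genes passed, with 10 sterol branch rises, 0 fatty acid rises and 1 fatty acid fall; in edgeR 0 of the fatty acid rises had an unadjusted p under 0.05 there, and DESeq2 against no change called 2. At an adjusted p under 0.01, 0 fatty acid rises remained by edgeR (2 at an unadjusted p under 0.05) and 2 by DESeq2. Without WT 2 and dKO 3, falls numbered 4 in each branch and the medians were 0.58 and -0.15. Srebf2, Acaca and Fasn turned to -0.20, -0.19 and -0.15. Most members were low in WT 2 and high in dKO 3 within their groups, so this choice itself lowers most fold changes. These 3 genes also turned without WT 2 (-0.07, -0.10 and -0.050) and without dKO 3 (-0.12, -0.075 and -0.047). With 1 library left out they ranged over -0.12 to 0.10, -0.10 to 0.10 and -0.050 to 0.12. Why WT 2 and dKO 3 differ was not tested. With each library left out in turn, sterol branch falls ran from 1 to 2 the sterol median from 0.65 to 0.92, the fatty acid median from -0.05 to 0.12 and all genes called from 8041 to 9120. With the replicate block, 8658 genes and 17 sterol branch rises were called. Same-numbered libraries correlated at -0.05, 0.03 and 0.07 in their deviations, and not every library did best with its own number. So few libraries cannot show whether same-numbered ones shared a culture or a preparation day, and the labels do not say. Of the members' values under the alternatives, 420 kept direction and side of the threshold, 12 lost a call, 7 gained one with the same sign, and 9 changed sign, of which 3 (Srebf2, Acaca and Fasn without WT 2 and dKO 3) were then called lower.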

Other observations

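The liver X receptors (LXRs) sense oxysterols and drive cholesterol export. Of 9 listed LXR and export genes 5 were tested, with 3 falls, 2 rises and a median log2 fold change of -0.78. Of all tested genes, 28.7% were called lower and 28.6% higher. The exporter genes Abca1 and Abcg1 were not among the 5. They averaged 0.033 and 0.0072 CPM in WT and 0 under the dKO label, so these calls do not cover them. Nr1h2, the gene of LXR beta, fell from 106 ± 2.05 to 61.8 ± 4.31 CPM, and Lpcat3, a phospholipid-remodelling enzyme gene, was higher, at 53.5 ± 4.34 CPM under the dKO label against 27.8 ± 2.53 CPM in WT (edgeR adjusted p = 3.78e-05 and 7.13e-05). Named after their values were seen, Arl4c, a small GTPase gene, fell by 1.43 ± 0.16 and Mylip, a ubiquitin ligase gene, by 1.76 ± 0.33 on the log2 scale. Nr1h3, the gene of LXR alpha and also named afterwards, went opposite to Nr1h2. It was low and rose from 3.13 ± 0.734 CPM in WT to 8.72 ± 2.09 CPM under the dKO label (edgeR adjusted p = 0.00122). Soat1, the gene that esterifies cholesterol for storage, also named afterwards, fell from 86.6 ± 4.20 to 43.5 ± 4.95 CPM (edgeR adjusted p = 3.41e-05).

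Among 12 listed genes of fatty acid oxidation, the opposing route, 10 were tested, with 4 rises, 4 falls and a median of -0.11, against the same 28.6% and 28.7% of all tested genes. Acaa2, the mitochondrial thiolase gene, rose by 1.57 ± 0.13 (edgeR adjusted p = 1.11e-05). Hadha and Hadhb, the subunit genes of the mitochondrial trifunctional protein, named afterwards, rose by 0.52 ± 0.06 and 0.96 ± 0.11. Cpt1a, the entry step into mitochondria, also named afterwards, fell from 121 ± 27.5 to 68.6 ± 3.72 CPM (edgeR adjusted p = 0.00185).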
